A study of Mus musculus with 8 samples.

Results

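Chemokines are small secreted or membrane-bound proteins that steer the migration of cells carrying matching G protein-coupled receptors. In the thymus they bring haematopoietic progenitors into the organ, move developing thymocytes between cortex and medulla, and gather dendritic cells near medullary epithelium. CCL21, the CCR7 ligand made by a large medullary thymic epithelial subset, is the best known of them in the medulla. Here the mRNA of 10 other chemokine genes was examined in thymic epithelial cells (TECs): *Ccl25*, *Cxcl12*, *Cx3cl1*, *Ccl19*, *Ccl22*, *Ccl17*, *Ccl20*, *Xcl1*, *Ccl5*, and *Cxcl10*. The genes were chosen by symbol, and all 10 were found once each among the 55450 genes of the table.

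CD45-EpCAM+ TECs of E17 mouse embryos were sorted by 2 reporters, tdTomato knocked into the *Ccl21a* locus and a transgene in which *Tnfrsf11a* (RANK) sequences drive Venus, and bulk RNA-sequencing was done on CCL21+RANK- (tdTomato+Venus-, 3 libraries), CCL21-RANK+ (tdTomato-Venus+, 3 libraries), and CCL21-RANK- (tdTomato-Venus-, 2 libraries) cells. All 3 populations carried both reporters and no treatment was given, so the groups differ in reporter signal within the same kind of embryo. The gates read reporter protein, and the tdTomato allele takes the place of *Ccl21a* sequence on the chromosome that carries it. The libraries held from 42751858 to 71625319 expected counts. The study's checklist calls its replicates biological, and the labels do not say whether libraries of a population came from separate embryos or litters. The p-values measure the spread between these libraries.

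The sorted cells were compared with their labels first. Levels are given as RPKM, which scales the counts of a gene by the length of its exons and by the total of the library. *Ccl21a* was measured at 561, 346, and 305.5 RPKM in CCL21+RANK-, at 152, 95.9, and 78.2 RPKM in CCL21-RANK+, and at 6.89 and 8.88 RPKM in CCL21-RANK- libraries. *Tnfrsf11a* was measured at 8.78, 9.44, and 10.3 RPKM, at 111, 93.1, and 107 RPKM, and at 2.62 and 2.26 RPKM in the same order. Both genes were thus highest in the population named for them, while the tdTomato-negative CCL21-RANK+ libraries still held *Ccl21a* mRNA. The epithelial gene *Epcam* was at 49.5 RPKM or more in every library, and *Ptprc*, which encodes CD45, did not exceed 0.576 RPKM. *Ptprc* had means of 0.392 RPKM in CCL21-RANK+, 0.124 RPKM in CCL21+RANK-, and 0.0434 RPKM in CCL21-RANK- libraries. *Foxn1*, the transcription factor that defines TECs, lay between 50.7 and 105 RPKM in all 8 libraries.

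*Ccl25* and *Cxcl12*, with *Cx3cl1*, made up the group of chemokine mRNAs that was low in CCL21-RANK+ TECs. *Ccl19*, *Ccl22*, *Ccl17*, *Ccl20*, *Xcl1*, and *Ccl5* were highest there, and *Cxcl10* was abundant in all 3 populations. A gene was called different at an adjusted p below 0.05 (quasi-likelihood test of edgeR, p-values adjusted after Benjamini and Hochberg over the 21451 genes tested), a fold change over 1.5, and a mean above 1 RPKM in the higher population. When CCL21+RANK- cells were set against CCL21-RANK+ cells, 9 of the 10 genes were called, 3 of them higher in CCL21+RANK- and 6 higher in CCL21-RANK+ cells. The background was high in this comparison, since 30.9% of all tested genes were called, 15.4% in each direction. Of the 6, *Ccl22*, *Ccl17*, *Ccl20*, and *Xcl1* passed the filter on low counts only through CCL21-RANK+ libraries. Their direction was thus set by the filter and adds no support to that count. In sorted bulk RNA, fewer cells that express a gene and less RNA per cell cannot be told apart. Libraries of the 2 populations did not overlap for 9 of the 10 genes, against 59.8% of all tested genes. The median log2 fold change was -1.95 over the 10 genes and -0.11 over all tested genes.

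**Figure D1:**
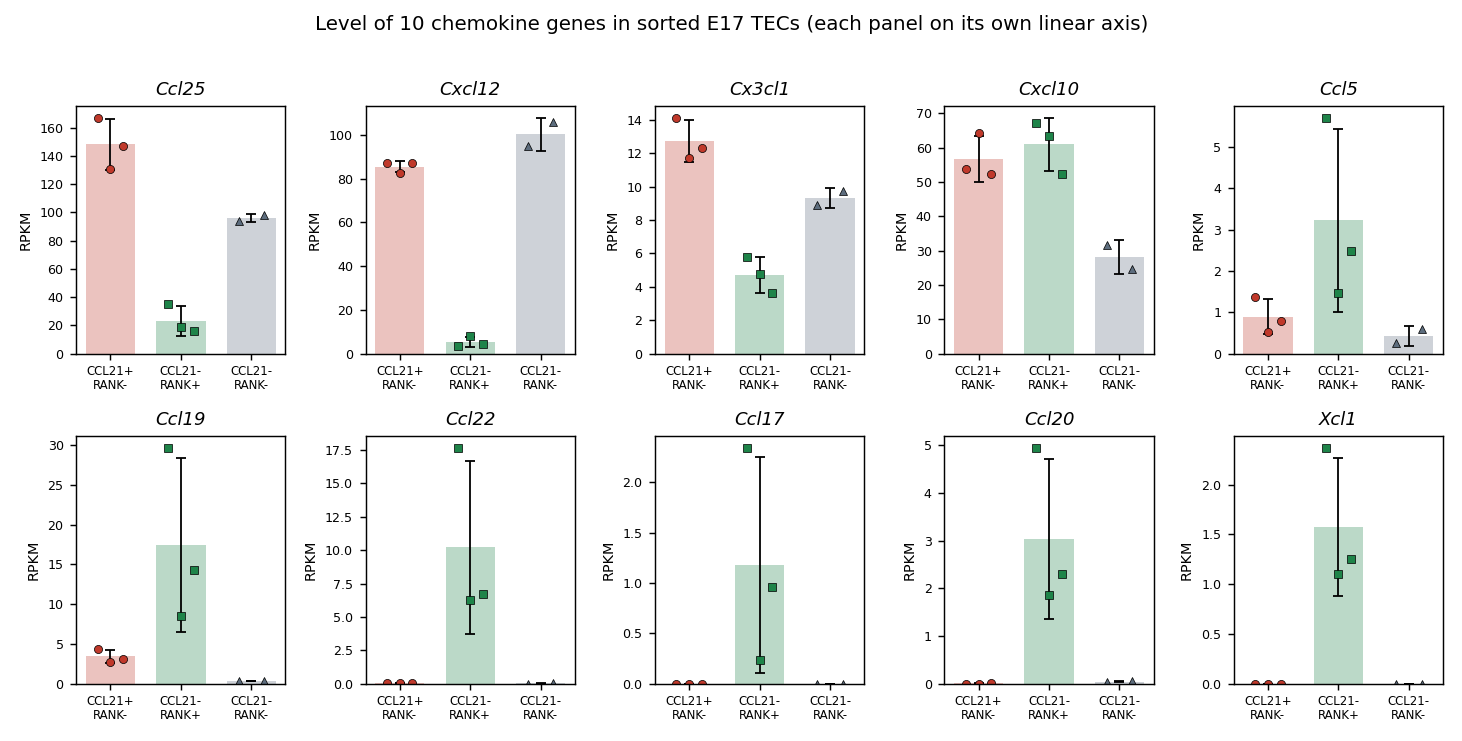
Level of each chemokine gene (RPKM, linear axis from 0 in each panel) in the 3 sorted populations. Symbols are single libraries, bars are means, and error bars are SD (n = 3, 3, and 2). The CCL21-RANK+ libraries lie lowest for *Ccl25*, *Cxcl12*, and *Cx3cl1* and highest for *Ccl5*, *Ccl19*, *Ccl22*, *Ccl17*, *Ccl20*, and *Xcl1*, and for *Cxcl10* they overlap the CCL21+RANK- libraries.

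*Ccl25* (ENSMUSG00000023235.14, chr8:4325210-4360020 of GRCm38, plus strand) encodes the ligand of CCR9, a receptor of thymus-settling progenitors and cortical thymocytes. Its level was 167, 131, and 147 RPKM in CCL21+RANK-, 35.4, 18.5, and 15.8 RPKM in CCL21-RANK+, and 93.8 and 98.2 RPKM in CCL21-RANK- TECs. The means were 148 ± 18.1 (SD, n = 3), 23.2 ± 10.6 (SD, n = 3), and 95.99 ± 3.10 RPKM (SD, n = 2). No library of any population overlapped those of another, and every CCL21-RANK+ library was below all others. The log2 fold change of CCL21+RANK- over CCL21-RANK+ was 2.81 ± 0.26 (SE), with an edgeR adjusted p of 1.49e-05. That of CCL21-RANK+ over CCL21-RANK- was -2.18 ± 0.27 (SE, edgeR adjusted p = 0.000121). Between CCL21+RANK- and CCL21-RANK- TECs the difference of 0.63 ± 0.27 (SE) was not called, with an edgeR adjusted p of 0.188. It was called with a replicate block (0.76, edgeR adjusted p = 0.0473), with only these 2 groups fitted (edgeR adjusted p = 0.0124), and without CCL21-RANK+ replicate 1 (edgeR adjusted p = 0.0147). *Ccl25* shares 204 exon bases with *Elavl1* on the opposite strand, a gene that held between 4474 and 10060 counts per library. Whether counting used strand is not given in the sources used here, so up to that overlap the reads of the 2 genes cannot be told apart.

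*Cxcl12* (ENSMUSG00000061353.11, chr6:117168535-117181367, plus strand) encodes the ligand of CXCR4, which retains early thymocytes in the cortex. Libraries held 87.0, 82.3, and 86.9 RPKM in CCL21+RANK-, 3.42, 7.87, and 4.25 RPKM in CCL21-RANK+, and 94.99 and 106 RPKM in CCL21-RANK- TECs. The 3 CCL21-RANK+ libraries lay more than 10 times below every other library, and here replicate 2 was the highest of them. Its log2 fold change was 4.14 ± 0.32 (SE) for CCL21+RANK- over CCL21-RANK+ cells (edgeR adjusted p = 5.00e-06). It was -4.37 ± 0.33 (SE) for CCL21-RANK+ over CCL21-RANK- cells (edgeR adjusted p = 5.92e-06). CCL21+RANK- and CCL21-RANK- TECs differed by -0.23 ± 0.31 (SE), which did not pass the test (edgeR adjusted p = 0.718).

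*Cx3cl1* (ENSMUSG00000031778.13, chr8:94772009-94782427, plus strand) encodes fractalkine, a membrane-anchored chemokine that is released by the proteases ADAM10 and ADAM17 and binds CX3CR1. Its levels were 14.1, 11.7, and 12.3 RPKM in CCL21+RANK-, 5.78, 4.76, and 3.63 RPKM in CCL21-RANK+, and 8.91 and 9.76 RPKM in CCL21-RANK- TECs. The 3 populations did not overlap, with CCL21+RANK- cells highest and CCL21-RANK+ cells lowest. The log2 fold change of CCL21+RANK- over CCL21-RANK+ was 1.56 ± 0.15 (SE, edgeR adjusted p = 2.52e-05). For CCL21-RANK+ over CCL21-RANK- it was -1.10 ± 0.17 (SE, edgeR adjusted p = 0.000463). For CCL21+RANK- over CCL21-RANK- it was 0.45 ± 0.17 (SE) and was not called (edgeR adjusted p = 0.126).

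RefSeq promoter windows of GRCm38.p6, from 250 bases before to 50 bases after a start site, were given for 9 of the 10 genes, with 2 windows for *Ccl25*. Those of *Ccl25* and *Cxcl12* are shown because these genes had the highest levels in CCL21-RANK- TECs and both were lower in CCL21-RANK+ TECs. Capitals mark GACGC, the core letters of the FOXN1 binding motif, on either strand. The *Ccl25* window is chr8:4324960-4325259 on the plus strand and the *Cxcl12* window is chr6:117168285-117168584 on the plus strand.
Ccl25: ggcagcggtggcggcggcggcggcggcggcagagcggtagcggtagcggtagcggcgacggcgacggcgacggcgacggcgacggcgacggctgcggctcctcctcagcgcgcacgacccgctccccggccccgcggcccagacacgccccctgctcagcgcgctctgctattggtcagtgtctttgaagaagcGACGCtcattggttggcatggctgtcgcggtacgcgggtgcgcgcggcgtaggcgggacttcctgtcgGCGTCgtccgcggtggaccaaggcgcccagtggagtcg
Cxcl12: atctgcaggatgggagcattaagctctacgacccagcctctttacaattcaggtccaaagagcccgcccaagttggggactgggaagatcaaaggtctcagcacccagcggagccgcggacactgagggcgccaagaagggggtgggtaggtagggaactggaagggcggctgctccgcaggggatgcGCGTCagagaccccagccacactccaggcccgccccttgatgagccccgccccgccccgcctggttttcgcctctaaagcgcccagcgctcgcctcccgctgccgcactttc
Counting the start site as 0, the matches began at positions -56 and 12 in the *Ccl25* window and at -62 in the *Cxcl12* window. The other *Ccl25* window held TATAAA, which 13.6% of all 32851 windows contained, and no match to the FOXN1 core. The FOXN1 core was present in 27.2% of all windows, and in 2 of the 10 windows of these chemokine genes. A match of letters is a description of the sequence and not of binding.

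*Ccl19* (ENSMUSG00000071005.7, chr4:42754525-42756577, minus strand) encodes the CCR7 ligand that shares its receptor with CCL21. Its gene ends 16282 bases from *Ccl21a* (chr4:42772860-42773993). It was measured at 4.403, 2.73, and 3.13 RPKM in CCL21+RANK-, at 29.7, 8.45, and 14.3 RPKM in CCL21-RANK+, and at 0.303 and 0.316 RPKM in CCL21-RANK- TECs. The 3 populations did not overlap. The order was CCL21-RANK+ (17.5 ± 11.0 RPKM, SD, n = 3), CCL21+RANK- (3.42 ± 0.872 RPKM, SD, n = 3), and CCL21-RANK- (0.310 ± 0.00926 RPKM, SD, n = 2), in contrast to *Ccl21a*, which had its highest level in CCL21+RANK- cells. *Ccl19* and no other gene of the 10 was called in all 3 comparisons.

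*Ccl19* had a log2 fold change of -2.20 ± 0.40 (SE) for CCL21+RANK- over CCL21-RANK+ cells (edgeR adjusted p = 0.00121). It was 3.44 ± 0.53 (SE) for CCL21+RANK- over CCL21-RANK- cells (edgeR adjusted p = 0.00332), and 5.64 ± 0.58 (SE) for CCL21-RANK+ over CCL21-RANK- cells (edgeR adjusted p = 3.75e-05). RSEM divides reads that match several genes, and the pseudogenes *Ccl19-ps1* and *Ccl19-ps3* on the same chromosome also received counts. *Ccl19* held between 63.0% and 94.5% of the counts of the 3 genes, lowest in CCL21-RANK- replicate 1 with 17.7 counts, so its level there is uncertain.

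*Ccl22* (ENSMUSG00000031779.3, chr8:94745590-94751699, plus strand) and *Ccl17* (ENSMUSG00000031780.2, chr8:94810453-94812036, plus strand) encode the ligands of CCR4, a receptor of newly selected thymocytes. *Ccl22* was measured at 17.7, 6.25, and 6.71 RPKM in CCL21-RANK+ TECs, from 2354, 729, and 667 counts. Each CCL21+RANK- library held 2 counts, and the CCL21-RANK- libraries held 1 and 9 counts. The CCL21-RANK+ libraries were far above all others. Summed over libraries and scaled to depth, *Ccl22* was 669-fold higher in CCL21-RANK+ cells than in CCL21+RANK- cells (95% exact counting interval 307 to 1825) and 347-fold higher than in CCL21-RANK- cells (189 to 725). These intervals cover counting error only. The fitted log2 fold change over CCL21-RANK- cells, 8.20, rested on few counts, 9 of 10 of them in CCL21-RANK- replicate 2. Leaving that library out gave 10.23, and leaving out the other one gave 7.45. That of CCL21+RANK- over CCL21-RANK+ cells, -9.09, was -8.50 without CCL21-RANK+ replicate 1. The edgeR adjusted p was 3.79e-06 against CCL21+RANK- and 1.50e-05 against CCL21-RANK- cells.

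*Ccl17* was measured at 2.34, 0.233, and 0.956 RPKM in CCL21-RANK+ TECs, from 69, 6, and 21 counts, and had no counts in the other 5 libraries. With 3 counts per library as the floor, it was at least 10.7-fold higher in CCL21-RANK+ cells than in CCL21+RANK- cells (edgeR adjusted p = 0.00809). It was at least 14.0-fold higher than in CCL21-RANK- cells (edgeR adjusted p = 0.0161). These values rested largely on replicate 1 of CCL21-RANK+. Without replicate 1 or replicate 3 *Ccl17* did not pass the expression filter, and without replicate 1 its mean was 0.594 RPKM. The call over CCL21-RANK- cells was also lost without either CCL21-RANK- library (edgeR adjusted p = 0.0703 without replicate 1 and 0.0786 without replicate 2).

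*Ccl22*, *Cx3cl1*, and *Ccl17* lie in this order, all on the plus strand, within 66447 bases of chromosome 8. *Cx3cl1* begins 20309 bases beyond the end of *Ccl22*, and *Ccl17* begins 28025 bases beyond the end of *Cx3cl1*. The only other annotated gene inside this interval is the pseudogene *Gnb1-ps3*, which had no counts. In CCL21-RANK+ TECs the outer genes *Ccl22* and *Ccl17* were higher and the middle gene *Cx3cl1* was lower than in both other populations. The flanking protein-coding genes differed among themselves. *Ciapin1* had means of 3.79, 4.43, and 3.91 RPKM in CCL21+RANK-, CCL21-RANK+, and CCL21-RANK- cells. *Dok4* was low in CCL21-RANK+ cells (4.06, 1.01, and 5.23 RPKM in the same order), and *Pllp* was highest there at a low level (0.0404, 0.518, and 0.0452 RPKM).

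**Figure D2:**
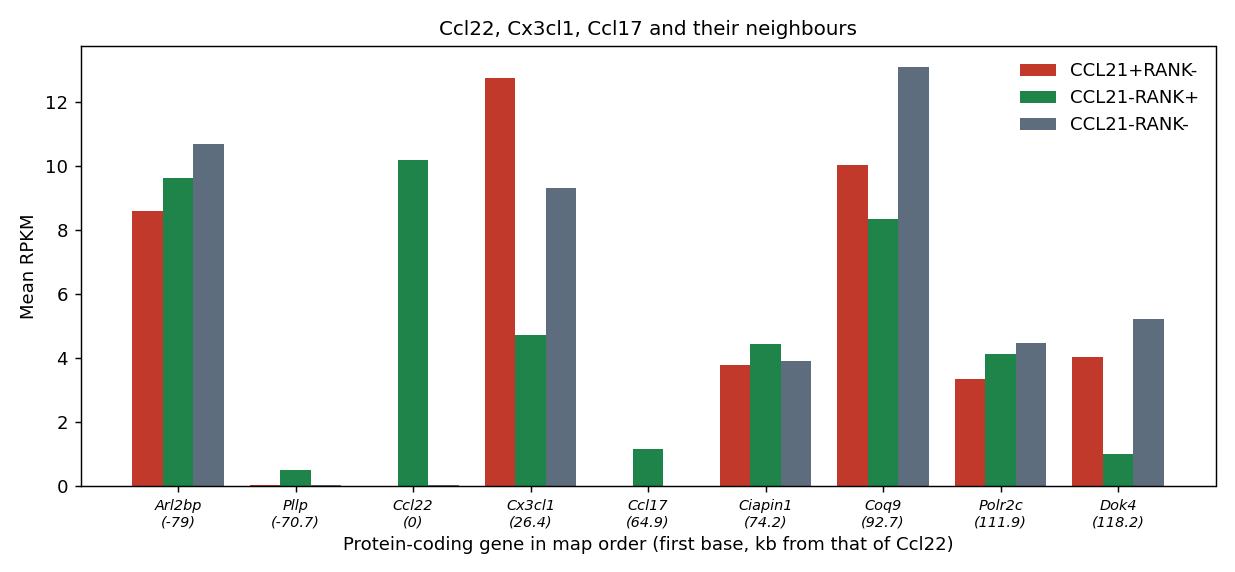
Mean RPKM of *Ccl22*, *Cx3cl1*, *Ccl17*, and the protein-coding genes within 100 kb of them, in map order, with the distance of each first base from that of *Ccl22* (kb) in brackets. Bars are means of 3, 3, and 2 libraries on a linear axis from 0. *Ccl22* and *Ccl17* have visible bars in CCL21-RANK+ cells only, whereas *Cx3cl1* between them has its lowest bar there.

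*Ccl20* (ENSMUSG00000026166.14, chr1:83116766-83119167, plus strand) encodes the ligand of CCR6. The gene reached 4.95, 1.85, and 2.30 RPKM in CCL21-RANK+ TECs, from 403, 132, and 140 counts. A single count was found in the 3 CCL21+RANK- libraries together, in replicate 3, and 3 and 5 counts were found in the CCL21-RANK- libraries. The CCL21-RANK+ libraries did not overlap the others. The depth-scaled ratio was 723 over CCL21+RANK- cells, with a wide 95% exact counting interval of 129 to 28587, and 78.1 over CCL21-RANK- cells (39.4 to 182). The fitted log2 fold change of CCL21+RANK- over CCL21-RANK+ cells was -8.88, and -10.82 without CCL21+RANK- replicate 3, where no count remained and the value is no bound. The edgeR adjusted p was 1.76e-05 against CCL21+RANK- and 0.000169 against CCL21-RANK- cells.

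*Xcl1* (ENSMUSG00000026573.7, chr1:164931644-164935527, minus strand) encodes lymphotactin, the ligand of XCR1 on cross-presenting dendritic cells. Levels of *Xcl1* were 2.37, 1.11, and 1.25 RPKM in CCL21-RANK+ TECs, from 71, 29, and 28 counts, and the other 5 libraries held none. *Xcl1* was at least 14.6-fold higher in CCL21-RANK+ cells than in CCL21+RANK- cells (edgeR adjusted p = 0.00188), and at least 19.1-fold higher than in CCL21-RANK- cells (edgeR adjusted p = 0.00417). Unlike *Ccl17*, it stayed above 1 RPKM without replicate 1 of CCL21-RANK+, with a mean of 1.18 RPKM. *Gm20743*, which overlaps *Xcl1* on the opposite strand, had no counts in any library.

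*Ccl5* (ENSMUSG00000035042.2, chr11:83525778-83530518, minus strand), which encodes a chemoattractant of T cells and other leukocytes, was higher in CCL21-RANK+ TECs by calls that rested on single libraries. It was measured at 1.36, 0.521, and 0.794 RPKM in CCL21+RANK-, at 5.71, 1.47, and 2.49 RPKM in CCL21-RANK+, and at 0.247 and 0.596 RPKM in CCL21-RANK- TECs. The lowest CCL21-RANK+ library exceeded the highest CCL21+RANK- library only narrowly. The log2 fold change of CCL21+RANK- over CCL21-RANK+ was -1.70 ± 0.59 (SE, edgeR adjusted p = 0.033). This call was lost without CCL21+RANK- replicate 2 (edgeR adjusted p = 0.102), CCL21+RANK- replicate 3 (0.0912), or CCL21-RANK+ replicate 1 (0.149), where the log2 fold change was -1.07. For CCL21-RANK+ over CCL21-RANK- cells the value was 2.80 ± 0.72 (SE, edgeR adjusted p = 0.00985), and it was lost without CCL21-RANK- replicate 1 (0.0854). It moved to 2.17 on leaving out CCL21-RANK+ replicate 1 and to 3.47 on leaving out CCL21-RANK- replicate 2.

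*Cxcl10* (ENSMUSG00000034855.13, chr5:92346638-92348889, minus strand) encodes an interferon-induced ligand of CXCR3. It was measured at 53.7, 64.3, and 52.2 RPKM in CCL21+RANK-, at 67.3, 63.5, and 52.4 RPKM in CCL21-RANK+, and at 31.7 and 24.7 RPKM in CCL21-RANK- TECs. Libraries overlapped between the first 2 populations, and both CCL21-RANK- libraries were below them. The log2 fold change of CCL21+RANK- over CCL21-RANK+ was 0.03 ± 0.17 (SE) and did not pass the test (edgeR adjusted p = 0.914). Its sign changed with the scaling (-0.07 with DESeq2 size factors). *Cxcl10* was higher than in CCL21-RANK- cells by a log2 fold change of 1.01 ± 0.20 (SE, edgeR adjusted p = 0.0107) in CCL21+RANK- cells. In CCL21-RANK+ cells it was higher by 0.98 ± 0.20 (SE, edgeR adjusted p = 0.00262). The former call was lost without CCL21-RANK- replicate 2 (edgeR adjusted p = 0.125). *Cxcl10* shares 133 exon bases with *Art3* on the opposite strand, which held between 38 and 251 counts per library.

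The windows of *Ccl20* and *Cxcl10* are shown because they were the only ones of the 10 that held the NF-κB consensus, searched on both strands and marked in capitals, although the genes differed in pattern. They are chr1:83116516-83116815 on the plus strand and chr5:92348840-92349139 on the minus strand.
Ccl20: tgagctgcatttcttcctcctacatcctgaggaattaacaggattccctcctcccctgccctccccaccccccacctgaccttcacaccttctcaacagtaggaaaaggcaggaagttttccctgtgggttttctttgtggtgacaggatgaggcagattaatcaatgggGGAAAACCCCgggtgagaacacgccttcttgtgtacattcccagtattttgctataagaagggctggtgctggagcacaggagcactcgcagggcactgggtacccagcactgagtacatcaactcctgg
Cxcl10: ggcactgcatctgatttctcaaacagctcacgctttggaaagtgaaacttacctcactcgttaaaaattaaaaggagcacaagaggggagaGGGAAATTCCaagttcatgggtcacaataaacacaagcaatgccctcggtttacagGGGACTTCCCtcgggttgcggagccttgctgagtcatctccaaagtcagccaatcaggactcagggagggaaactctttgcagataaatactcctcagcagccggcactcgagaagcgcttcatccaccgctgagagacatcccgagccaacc
The match began at position -80 in *Ccl20*, and matches began at -159 and -103 in *Cxcl10*. The NF-κB consensus was present in 4.51% of all windows. The *Cxcl10* window also held an interferon-response motif, GAAA followed after any 2 bases by GAAA on either strand, at -213 and the AP-1 motif, spelled TGANTCA, at -74. The interferon-response motif was likewise found in the *Ccl19* window at -208, and it was present in 3.44% of all windows. The AP-1 motif, which reads the same on both strands, was present in 7.81%.

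Of the 2 Venus-negative populations, CCL21+RANK- TECs had more *Ccl19* and *Cxcl10* mRNA than CCL21-RANK- TECs. These 2 of the 10 genes were called, both higher in CCL21+RANK- cells, and no gene of the 10 was called higher in CCL21-RANK- cells. Among all tested genes 8.02% were called, 4.35% higher in CCL21+RANK- and 3.66% higher in CCL21-RANK- cells. Libraries did not overlap for 6 of the 10 genes, against 38.8% of all tested genes. The median log2 fold change was 0.23, with *Ccl17* and *Xcl1*, which had no counts in either population, entered at 0, and the median of all tested genes was 0.

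Between CCL21-RANK+ and CCL21-RANK- TECs all 10 genes were called, 7 higher in CCL21-RANK+ and 3 higher in CCL21-RANK- cells. Of all tested genes 29.5% were called, 14.4% higher in CCL21-RANK+ and 15.1% higher in CCL21-RANK- cells. Here too *Ccl22*, *Ccl17*, *Ccl20*, and *Xcl1* passed the filter only through CCL21-RANK+ libraries, so their direction adds no support to the count of 7. No gene of the 10 overlapped between these populations, against 65.8% of all tested genes without overlap. The median log2 fold change was 4.22, or 3.31 with *Ccl17* and *Xcl1* at their lower bounds, and that of all tested genes was 0.06. The 3 comparisons share their libraries and are not independent of each other.

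**Figure D3:**
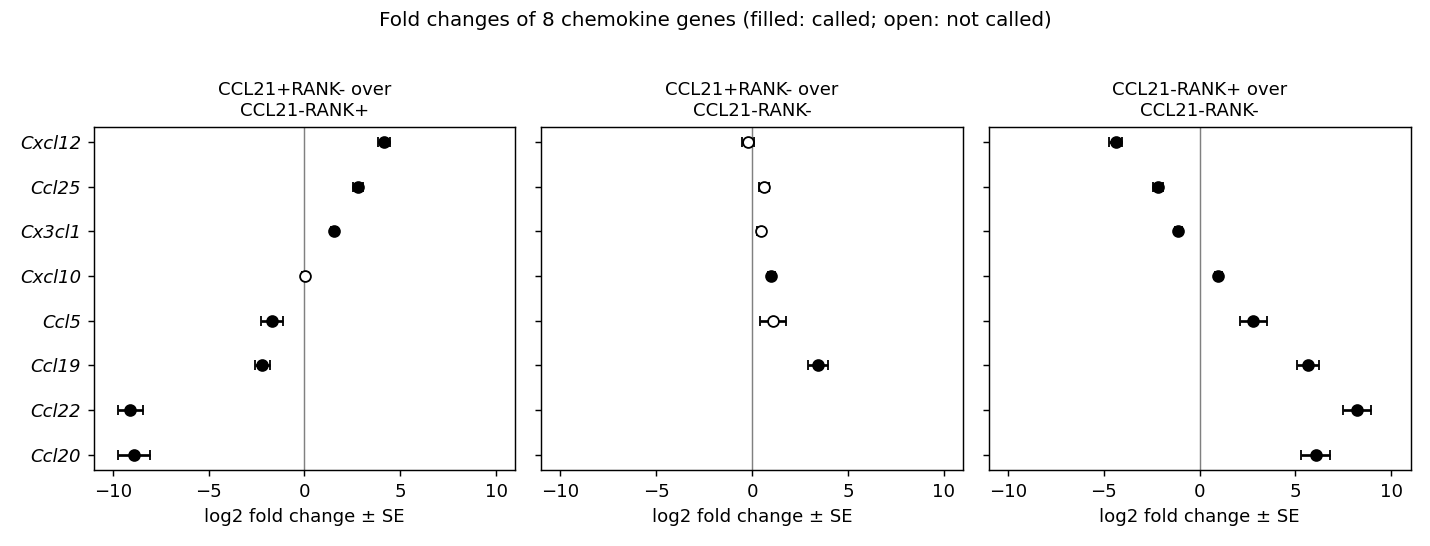
Log2 fold changes (x axis, ± SE) of 8 chemokine genes in the 3 comparisons, fitted in edgeR to all 8 libraries. Filled points were called and open points were not. *Cxcl12*, *Ccl25*, and *Cx3cl1* lie on the side opposite to *Ccl5*, *Ccl19*, *Ccl22*, and *Ccl20* in the outer panels. *Ccl17* and *Xcl1*, with no counts in 2 populations, are left out, as are *Ccl22* and *Ccl20* in the middle panel, where both populations held few counts.

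The composition of the chemokine mRNA differed between the populations. The summed level of the 10 genes averaged 307 ± 18.1 RPKM (SD, n = 3) for CCL21+RANK- libraries. It was lower for CCL21-RANK+ libraries, with 131 ± 38.1 RPKM (SD, n = 3), and amounted to 235 ± 6.60 RPKM (SD, n = 2) for CCL21-RANK- libraries. *Ccl25* and *Cxcl12* together formed 75.9% ± 2.62 (SD, n = 3), 21.5% ± 2.03 (SD, n = 3), and 83.6% ± 2.17 (SD, n = 2) of it in the same order. In CCL21-RANK+ cells *Cxcl10* formed 48.2% ± 8.79 (SD, n = 3) and *Ccl25* 17.2% ± 2.69 (SD, n = 3). There *Ccl19* formed 12.7% ± 4.88 (SD, n = 3) and *Ccl22* 7.35% ± 2.45 (SD, n = 3). The share of *Cx3cl1* was 4.14%, 3.66%, and 3.98% on average in the 3 populations. *Ccl21a* alone was between 1.01 and 1.71 times the sum of the 10 genes in CCL21+RANK- libraries, between 0.751 and 0.869 times in CCL21-RANK+ libraries, and 0.03 and 0.0371 times in CCL21-RANK- libraries. The ratio of 1.71 was that of replicate 1. Expected counts of *Ccl21a* were not whole numbers, so RSEM divided some of its reads among genes. The tdTomato allele also takes the place of *Ccl21a* sequence, so these ratios are those of reporter embryos. The sums and these ratios also depend on the length used for *Ccl25*. With the longest transcript of each gene as its length, the sums averaged 634 ± 54.1 RPKM (SD, n = 3), 183 ± 60.7 RPKM (SD, n = 3), and 467 ± 16.1 RPKM (SD, n = 2). *Ccl21a* was then below the sum in every library, at 0.488 to 0.81 times in CCL21+RANK-, 0.555 to 0.613 times in CCL21-RANK+, and 0.0151 and 0.0186 times in CCL21-RANK- libraries.

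**Figure D4:**
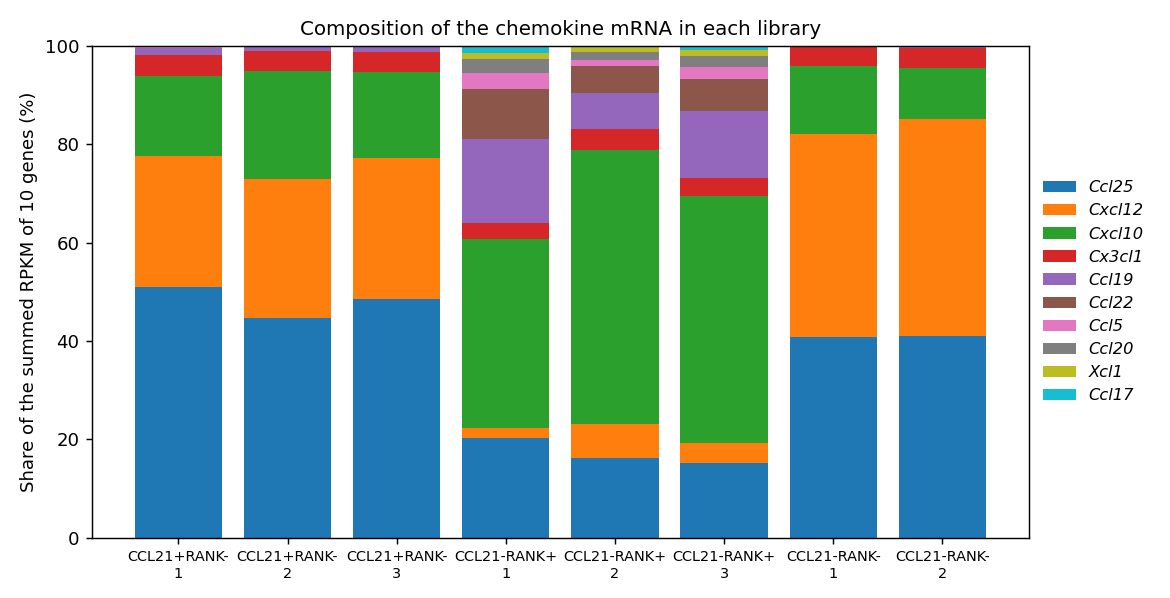
Share of each gene in the summed RPKM of the 10 chemokine genes (%, stacked to 100) in each of the 8 libraries. *Ccl25* and *Cxcl12* form most of the CCL21+RANK- and CCL21-RANK- bars. In the CCL21-RANK+ bars *Cxcl10* is the largest part, followed on average by *Ccl25*, *Ccl19*, and *Ccl22*.

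Among CCL21+RANK- libraries the order of levels was *Ccl25*, *Cxcl12*, *Cxcl10*, *Cx3cl1*, *Ccl19*, *Ccl5*, *Ccl22*, and *Ccl20*, and the libraries of neighbours in this order did not overlap. *Ccl22* and *Ccl20* held at most 2 counts per library there, under the floor of 3 counts, so the order of these 2 is uncertain. In CCL21-RANK- cells *Cxcl12* and *Ccl25* overlapped at the top, followed by *Cxcl10* and *Cx3cl1*, which were each apart from their neighbours. In CCL21-RANK+ TECs *Cxcl10* stood apart at the top, and each later pair of neighbours, from *Ccl25* through *Ccl19*, *Ccl22*, *Cxcl12*, *Cx3cl1*, *Ccl5*, *Ccl20*, and *Xcl1* to *Ccl17*, overlapped. The orders depend on that length too, which for *Ccl25* is 7445 bases over all exons and 2549 bases for the longest transcript. With the longest transcripts, *Ccl25* formed 68.1%, 36.1%, and 60.1% of the sum for CCL21+RANK-, CCL21-RANK+, and CCL21-RANK- cells, and *Cxcl10* formed 35.1% in CCL21-RANK+ cells.

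Replicate 1 of CCL21-RANK+ had the highest level in its population for 9 of the 10 genes, all but *Cxcl12*. Without it, the means of the remaining 2 libraries were 11.4 RPKM for *Ccl19*, 6.48 RPKM for *Ccl22*, 2.08 RPKM for *Ccl20*, and 1.98 RPKM for *Ccl5*. Leaving it out, 7 of the 10 genes were called against CCL21+RANK- cells, with *Ccl5* and *Ccl17* lost, and 9 against CCL21-RANK- cells. In the same fits 30.5% and 28.6% of all tested genes were called. The log2 fold changes for CCL21+RANK- against CCL21-RANK+ cells were then -1.65 for *Ccl19*, -8.50 for *Ccl22*, and 3.18 for *Ccl25*. *Ccl19* and *Ccl22* thus remained higher in CCL21-RANK+ cells in both remaining libraries.

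The receptors of these chemokines were measured in the same epithelial libraries. Of 23 chemokine receptor and scavenger genes, 21 were tested, 6 were called higher in CCL21-RANK+ cells relative to CCL21+RANK- TECs, 1 was called higher in CCL21+RANK- TECs, and 14 were not called. The total of 7 of 21 called is near the background of 30.9% of all tested genes, so that total is no result about receptors. By direction, 15.4% of all tested genes were called higher in CCL21-RANK+ cells and 15.4% higher in CCL21+RANK- cells. On adjusted p alone 17 of the 21 passed, against 53.7% of all tested genes. Libraries did not overlap for 18 of the 21, against 59.8%. The median log2 fold change was -4.10 with genes at 0 in a population at their bounds, and -0.11 over all tested genes. *Ccr4*, the receptor gene for CCL17 and CCL22, was measured at 33.7, 13.9, and 18.1 RPKM in CCL21-RANK+ libraries and at no more than 0.117 RPKM elsewhere. *Cxcr4*, the CXCL12 receptor gene, was at 12.0, 12.4, and 14.8 RPKM in CCL21-RANK+ libraries and at no more than 1.30 RPKM elsewhere. CCL21-RANK+ libraries were therefore high in *Ccr4* together with its ligand genes, and high in *Cxcr4* while low in *Cxcl12*.

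*Ccr7*, the receptor gene for CCL19 and CCL21, was measured at 10.5, 3.93, and 5.996 RPKM in CCL21-RANK+ libraries, and at no more than 0.0525 RPKM elsewhere. *Ccr6*, the CCL20 receptor gene, was at 2.55, 2.87, and 3.51 RPKM there and at no more than 0.485 RPKM elsewhere. *Ccr10*, which binds CCL27 and CCL28, was at 5.91, 6.16, and 6.84 RPKM and at no more than 0.112 RPKM elsewhere. Each of these receptor genes had its lowest CCL21-RANK+ library above every other library. The edgeR adjusted p-values for CCL21+RANK- against CCL21-RANK+ were 1.71e-06 for *Ccr4*, 2.77e-06 for *Cxcr4*, 1.68e-05 for *Ccr7*, 0.00046 for *Ccr6*, and 1.48e-06 for *Ccr10*. *Ackr3*, a CXCL12 scavenger gene, was the remaining one called, with a mean of 2.10 RPKM in CCL21-RANK+ cells.

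*Ackr4*, an atypical receptor that takes up CCL19, CCL21, and CCL25 without signalling, went the other way. Levels of *Ackr4* were 24.1, 20.4, and 27.1 RPKM in CCL21+RANK-, 1.53, 3.14, and 2.21 RPKM in CCL21-RANK+, and 28.9 and 39.7 RPKM in CCL21-RANK- TECs. Like *Ccl25*, it was lowest in the CCL21-RANK+ libraries. Between the other populations the orders differed, with *Ackr4* higher in CCL21-RANK- and *Ccl25* higher in CCL21+RANK- libraries. The log2 fold change of *Ackr4* for CCL21+RANK- over CCL21-RANK+ was 3.48 ± 0.26 (SE, edgeR adjusted p = 4.68e-06). The receptor genes *Ccr9*, *Xcr1*, *Cx3cr1*, and *Cxcr3*, whose products bind CCL25, XCL1, CX3CL1, and CXCL10, were below 1 RPKM in every library. Against CCL21-RANK- cells, the same numbers of receptor genes were called, 6 higher and 1 lower in CCL21-RANK+ cells. Of all tested genes 29.5% were called there, 14.4% higher and 15.1% lower in CCL21-RANK+ cells. *Cxcr4* was the only receptor gene called between CCL21+RANK- and CCL21-RANK- cells (0.458 and 1.10 RPKM).

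**Figure D5:**
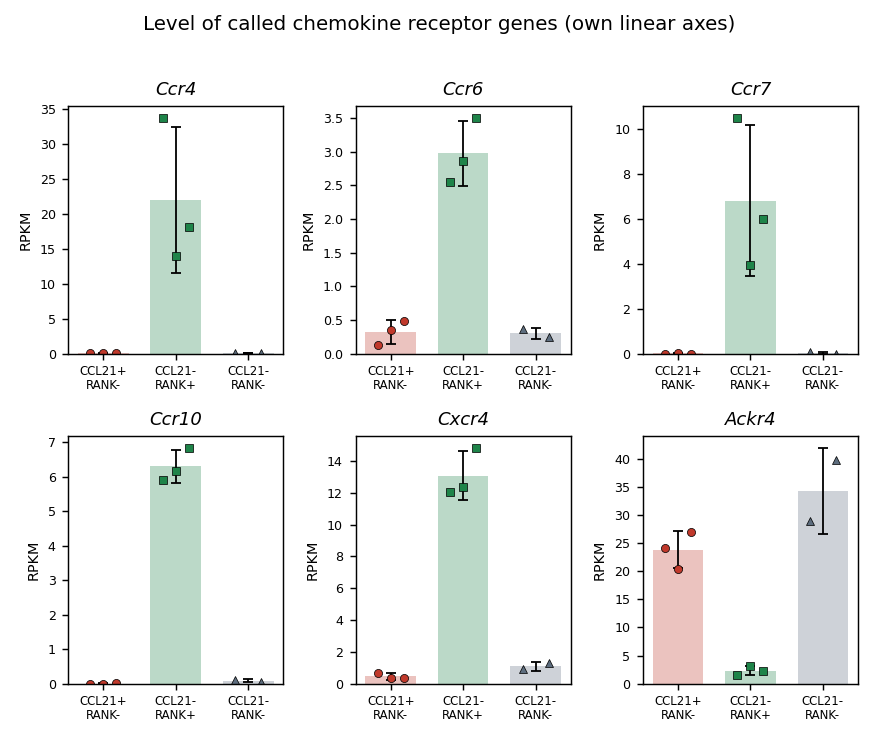
Level (RPKM, linear axis from 0 in each panel) of 6 receptor genes that differed between CCL21+RANK- cells and CCL21-RANK+ cells. Symbols are single libraries, bars are means, and error bars are SD (n = 3, 3, and 2). *Ccr4*, *Ccr6*, *Ccr7*, *Ccr10*, and *Cxcr4* are high in CCL21-RANK+ libraries, and *Ackr4* is high in the other 5 libraries.

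Of 3 protease genes that process chemokines, 2 were called, both higher in CCL21-RANK+ cells when set against CCL21+RANK- cells, where 15.4% of all tested genes were called in this direction. *Dpp4*, the peptidase that trims CXCL10, CXCL12, CCL5, and CCL22, was measured at 3.06, 1.30, and 1.94 RPKM in CCL21-RANK+ libraries and at no more than 0.607 RPKM elsewhere. It was called higher in CCL21-RANK+ cells relative to CCL21+RANK- cells (log2 fold change -2.17 ± 0.38 (SE), edgeR adjusted p = 0.00102). *Adam17*, which sheds CX3CL1, was at 19.6, 14.3, and 14.5 RPKM in CCL21-RANK+ libraries, where *Cx3cl1* was lowest, and at no more than 10.5 RPKM elsewhere. Its log2 fold change of CCL21+RANK- over CCL21-RANK+ was -0.63 ± 0.12 (SE, edgeR adjusted p = 0.00165).

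Of 27 further chemokine genes, 20 were tested, 8 were called higher in CCL21-RANK+ cells relative to CCL21+RANK- TECs, 1 was called higher in CCL21+RANK- TECs, and 11 were not called. Of all tested genes 15.4% were called in each direction. The median log2 fold change of the 20 genes was -3.44 with genes at 0 in a population at their bounds, and that of all tested genes was -0.11. *Cxcl9* and *Cxcl11*, which share the receptor CXCR3 with CXCL10, had means of 12.6 and 2.57 RPKM in CCL21-RANK+ cells and of 0.968 and 1.03 RPKM in CCL21+RANK- cells. Both were called higher in CCL21-RANK+ cells (edgeR adjusted p = 0.000206 and 0.00238), whereas *Cxcl10* was not. *Cxcl13*, the CXCR5 ligand, was at 17.6, 7.89, and 8.77 RPKM in CCL21-RANK+ libraries and at no more than 0.379 RPKM elsewhere. *Ccl9* and *Ccl2* reached means of 1.94 and 1.52 RPKM there. *Cxcl16*, the CXCR6 ligand, was the gene that was higher in CCL21+RANK- cells, at 19.1, 11.3, and 13.1 RPKM against 11.0, 7.72, and 7.84 RPKM in CCL21-RANK+ cells (edgeR adjusted p = 0.00489). Compared with CCL21-RANK- cells, 9 of the 20 were called higher in CCL21-RANK+ cells, against 14.4% of all tested genes, and none was called lower. *Cxcl11* and *Cxcl16* were called higher in CCL21+RANK- cells than in CCL21-RANK- cells, against 4.35% of all tested genes.

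*Cxcl10* was set beside 8 genes that interferons induce. Of these, 7 were called higher in CCL21+RANK- cells relative to CCL21-RANK+ cells and none was called lower, with a median log2 fold change of 1.74. Of all tested genes 15.4% were called higher in CCL21+RANK- cells, with a median of -0.11. *Isg15*, a ubiquitin-like protein gene, was at 141, 139.5, and 191 RPKM in CCL21+RANK-, at 25.8, 22.7, and 18.1 RPKM in CCL21-RANK+, and at 55.8 and 90.1 RPKM in CCL21-RANK- TECs. The transcription factor genes *Irf1* (70.1 and 27.7 RPKM on average) and *Irf7* (25.8 and 8.28 RPKM), and *Ifit3* (46.9 and 10.9 RPKM), were likewise called higher in CCL21+RANK- cells relative to CCL21-RANK+ cells. *Rsad2*, an antiviral enzyme gene, was the one not called, with means of 4.58 and 5.39 RPKM (log2 fold change -0.10 ± 0.24 (SE), edgeR adjusted p = 0.745). Like *Cxcl10*, it was called higher in both populations than in CCL21-RANK- cells (1.92 RPKM). Between CCL21+RANK- and CCL21-RANK- cells, 6 of the 8 were called higher in CCL21+RANK- cells, against 4.35% of all tested genes, as was *Cxcl10*.

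Markers of other cell types moved with the population, and their part in the chemokine results was not tested. Of 8 dendritic cell and macrophage markers, 4 were called higher in CCL21-RANK+ cells relative to CCL21+RANK- TECs, a direction in which 15.4% of all tested genes were called. Their summed level was 62.2, 20.6, and 24.1 RPKM in CCL21-RANK+, at most 1.75 RPKM in CCL21+RANK-, and at most 0.534 RPKM in CCL21-RANK- libraries. The most abundant was *Lyz2* with 52.3, 14.7, and 17.8 RPKM in CCL21-RANK+ libraries. *Zbtb46*, *Adgre1*, and *Csf1r* were the others called, with means of 3.25, 2.199, and 1.08 RPKM in CCL21-RANK+ and of 1.27, 0.00345, and 0.073 RPKM in CCL21+RANK- cells. *Itgax*, *Flt3*, *Cd209a*, and *Siglech* were below 1 RPKM in every library. Of these, *Flt3* passed on adjusted p alone (0.608 against 0.00333 RPKM, edgeR adjusted p = 5.92e-05). The CD45 gene *Ptprc* likewise passed on adjusted p alone as higher in CCL21-RANK+ cells. Its edgeR adjusted p was 0.028 against CCL21+RANK- and 0.00304 against CCL21-RANK- cells. Replicate 1, the highest for *Lyz2*, was also the highest CCL21-RANK+ library for 9 of the 10 chemokine genes, including *Ccl25*, *Cx3cl1*, and *Cxcl10*.

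Of 6 mesenchymal markers, 5 were called higher in CCL21-RANK+ cells relative to CCL21+RANK- cells, against 15.4% of all tested genes, with summed levels of 51.7, 26.3, and 32.4 RPKM in CCL21-RANK+ libraries against at most 3.02 RPKM elsewhere. *Col1a1* was the most abundant of them (24.0, 7.43, and 15.4 RPKM), and *Pdgfra* was below 1 RPKM in every library. *Pdgfra* went the other way, passing on adjusted p alone (0.196 RPKM in CCL21+RANK- against 0.068 RPKM in CCL21-RANK+ cells, log2 fold change 1.67 ± 0.55 (SE), edgeR adjusted p = 0.0283). *Cxcl12*, known as a product of mesenchymal cells too, was lowest in these same libraries. Of 7 markers of NK and innate lymphoid cells, 5 were tested. Of these 1, *Tbx21*, was called higher in CCL21-RANK+ cells relative to CCL21+RANK- cells, near the 15.4% of all tested genes. On adjusted p alone 4 of the 5 passed, all higher in CCL21-RANK+ cells, against 53.7% of all tested genes. Libraries of the same 4 did not overlap, against 59.8% of all tested genes. *Tbx21* was also the most abundant (6.02, 3.41, and 5.57 RPKM). The list had summed levels of 9.59, 5.43, and 8.25 RPKM against at most 1.31 RPKM elsewhere, and *Ncr1* was at 0 in every library. *Xcl1*, which NK cells also make, had counts in these libraries only.

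Of 8 thymocyte markers, 2 were called higher in CCL21-RANK+ cells relative to CCL21+RANK- cells, near the 15.4% of all tested genes called in this direction. Relative to CCL21-RANK- cells, 4 of the 8 (*Cd4*, *Cd8a*, *Lck*, and *Rag1*) were called higher in CCL21-RANK+ cells, against 14.4% of all tested genes. All 8 passed on adjusted p alone, against 49% of all tested genes. Libraries did not overlap for all 8, against 65.8% of all tested genes. In that comparison 4 of 6 tested dendritic cell and macrophage markers, 5 of 6 mesenchymal markers, and 2 of 5 tested NK and innate lymphoid markers were also called higher in CCL21-RANK+ cells. The thymocyte markers summed to between 8.88 and 21.4 RPKM in CCL21-RANK+, between 4.57 and 10.9 RPKM in CCL21+RANK-, and 3.46 and 3.04 RPKM in CCL21-RANK- libraries, with *Rag1* the most abundant (at most 6.31 RPKM) and *Cd3e* below 1 RPKM in every library. None of 5 endothelial markers was called, and all were below 1 RPKM in every library, with *Esam* the most abundant. They summed to at most 2.81 RPKM in CCL21-RANK+ and 0.394 RPKM in the other libraries. Relative to CCL21+RANK- cells, 3 of the 5 passed on adjusted p alone as higher in CCL21-RANK+ cells, near the 53.7% of all tested genes. Of 4 erythroid markers, 1 was called higher in CCL21-RANK+ cells relative to CCL21+RANK- cells, against 15.4% of all tested genes. None was called relative to CCL21-RANK- cells. *Hbb-bs*, the most abundant, ranged from 2.92 to 174 RPKM, and their sum ranged from 5.45 to 318 RPKM, highest in CCL21-RANK- replicate 1.

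All 4 parathyroid markers were called higher in CCL21+RANK- cells relative to CCL21-RANK+ TECs, against 15.4% of all tested genes, and none was at 0. Their sum was 7122, 1750, and 1955 RPKM in CCL21+RANK- libraries, between 11.1 and 24.9 RPKM in CCL21-RANK+, and 23.8 and 21.6 RPKM in CCL21-RANK- libraries. *Chga* was the most abundant, at 4061, 878, and 1020 RPKM in CCL21+RANK- libraries. The study describes parathyroid cells next to the embryonic thymus that also express *Ccl21a*. The part of such cells in the levels given here was not tested. Replicate 1, the highest for these markers, was also the highest CCL21+RANK- library for *Ccl21a* (561 against 346 and 305.5 RPKM). It was likewise the highest for *Ccl25*, *Cx3cl1*, *Ccl19*, and *Ccl5* and, by a narrow margin, for *Cxcl12*. Without it the log2 fold changes for CCL21+RANK- against CCL21-RANK+ were 2.71 for *Ccl25*, 1.48 for *Cx3cl1*, and 4.13 for *Cxcl12*, and all 9 calls were made, with 30.6% of all tested genes called.

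Of 7 TEC genes, 5 were called higher in CCL21+RANK- cells relative to CCL21-RANK+ cells and 1, *Aire*, was called lower, where 15.4% of all tested genes were called in each direction. *Aire*, which drives expression of tissue-restricted genes in medullary TECs, was at 131, 94.1, and 114 RPKM in CCL21-RANK+ libraries and at no more than 0.81 RPKM elsewhere. *Psmb11*, a cortical TEC proteasome gene, was at 11.9 to 32.7 RPKM in CCL21-RANK+ libraries, 203 to 333 RPKM in CCL21+RANK-, and 293 and 299 RPKM in CCL21-RANK- libraries. The TEC genes summed to between 1523 and 1869 RPKM in CCL21-RANK+ and between 4146 and 5392 RPKM in the other libraries, with *Krt18* the most abundant (434.7, 480.4, and 394 RPKM against at least 1989 RPKM). Between CCL21-RANK+ and the other libraries, high *Ccl25* and *Cxcl12* went with high *Psmb11*, and high *Ccl22*, *Ccl20*, and *Xcl1* went with high *Aire*. Within populations this did not hold for *Ccl25*, since replicate 1 had the most *Ccl25* and the least *Psmb11* of both the CCL21+RANK- and the CCL21-RANK+ libraries.

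The genes with patterns most like each chemokine gene were ranked by Pearson r of log2 CPM over the 8 libraries among 11559 protein-coding genes with a mean of at least 1 RPKM. The libraries form 3 populations, so high r values were common and describe only the ranking. *Cxcl12* was most like *Lancl1*, *Fgfr2*, and *Trim29* (r = 0.9995, 0.9994, and 0.9992), and 1491 genes exceeded an r of 0.95 with it. *Ccl25* was most like *Sec14l1*, *Dnajb2*, and *Rnf150*, and *Cx3cl1* was most like *Igfbp2*, *Skap2*, and *Kremen1*. *Xcl1* was most like *Trh*, *Mt4*, and *Rln3*, which encode a hypothalamic hormone precursor, a squamous epithelial metallothionein, and relaxin 3 and, like *Xcl1*, had no counts in CCL21+RANK- and CCL21-RANK- libraries. *Ccl17* was most like *Reg4*, *Pomc*, and *P2rx4*, *Ccl22* was most like *Sost*, *Mphosph10*, and *Ces1h*, and *Ccl20* was most like *Sik3*, *Ndufc2*, and *Neurl1b*. *Ccl19* was most like *Gse1*, *Sbno2*, and *Pde4dip*, and *Ccl5* was most like *Erlec1*, *Them6*, and *Hrc*. *Cxcl10* stood out with only 6 genes above an r of 0.95, led by *Plcb4*, *Celsr1*, and *Dagla* (r = 0.970, 0.969, and 0.958).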

How the data were processed

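RNA-sequencing of 8 libraries of sorted E17 TECs was analysed. The authors deposited 1 table with the expected count of each gene, obtained with bcl2fastq 2.20, Trimmomatic, STAR 2.5.1, and RSEM 1.3.1 on mm10, according to the submitters' processing notes. RSEM splits reads that match several genes, so the deposited expected counts are not all whole numbers. The labels name a directional library kit that differs from the kit in the study's methods, and the strand setting of counting is not given in the sources used here. All 55450 gene IDs matched GENCODE M21 (GRCm38), which gave positions and exon lengths.

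Rounded counts were analysed with edgeR 4.0.16 (R 4.3.3) after its default filter on low counts and TMM scaling, in 1 quasi-likelihood model of the 3 population means over all 8 libraries. All 10 chemokine genes passed the filter. *Ccl22*, *Ccl17*, *Ccl20*, and *Xcl1* passed it only through the CCL21-RANK+ libraries, so their direction followed from the filter. The same held for genes of other lists with few counts elsewhere, such as *Ccr7*. Standard errors came from the quasi-likelihood F. RPKM used library totals and all exons. Libraries of a population differed by more than sampling noise (chi-square per gene from 77.3 to 275). The common biological coefficient of variation was 0.326. The floor of 3 counts per library was used where every library of a population was at 0. Where a population held a few counts, the ratio of summed counts is given with its counting interval, which is not on the scale of that floor. Counting intervals are exact at 95%, and reads without molecular identifiers are not independent molecules.

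On simulated counts with 200 genes changed 4-fold, the fit recovered 190 for CCL21+RANK- against CCL21-RANK+ cells (20730 genes, 14 others called). It recovered 170 for CCL21+RANK- against CCL21-RANK- cells (20478 genes, 12 others called) and 170 for CCL21-RANK+ against CCL21-RANK- cells (20574 genes, 13 others called).

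The genes and lists were chosen with earlier results of these data known, and lists are described by counts only. The text names all 10 members, called genes of other lists (at most the 5 highest by RPKM in each direction), the most abundant gene of each marker list, and the 3 genes most like each member. It also names the genes of the gates, genes that neighbour or overlap members, receptor genes of members, and markers below 1 RPKM in every library. *Ackr3*, *Dok4*, *Pllp*, *Rsad2*, and the thymocyte markers called against CCL21-RANK- cells were named after their values were seen. Alternatives were DESeq2 1.42.0, other scalings, filters, thresholds, and gene lengths, a replicate block, and leaving out each library. The shares, sums, and ratios with the longest transcripts were added after seeing the data. Python 3.11.15 and matplotlib 3.10.9 were used. Some members of the gene lists are counted but are not reported by name here.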

Additional observations from a re-analysis of the deposited data

How the results depend on the processing

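Of the 10 chemokine genes, *Ccl19*, *Ccl25*, *Ccl22*, *Ccl20*, *Cxcl12*, *Xcl1*, and *Cx3cl1* kept direction and call between CCL21-RANK+ TECs and each other population under every alternative that gave them a value. The call of *Ccl5* against CCL21+RANK- cells was lost in a test of a fold change over 1.5 (adjusted p = 0.0724), as was that of *Cxcl10* between CCL21+RANK- and CCL21-RANK- cells (0.12), leaving 1 of the 10 genes and 676 of all genes called there. A minimum of 10 counts in every library left 5 chemokine genes called between CCL21+RANK- and CCL21-RANK+ cells, where 38.1% of all tested genes were called. It left 6 called between CCL21-RANK+ and CCL21-RANK- cells, where 34.7% of all tested genes were called. Both counts fell because the minimum removed *Ccl22*, *Ccl17*, *Ccl20*, and *Xcl1*. *Ccl17* also had no value without CCL21-RANK+ replicate 1 or 3, nor against CCL21+RANK- cells with only the groups compared. Adjusted p alone called 11516 and 10501 genes in these comparisons.

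The log2 fold change of *Cxcl10* between CCL21+RANK- and CCL21-RANK+ cells, near 0, changed sign with DESeq2 size factors (-0.0655), upper-quartile scaling (-0.0536), the DESeq2 Wald test (-0.0654), no expression filter (-0.0263), the 10-count minimum (-0.113), and removal of *Gm26917* and *Gm42418* (-0.0022), 2 genes that took between 8.36% and 23.2% of each library. Leaving out single libraries gave -0.156 to 0.132. Between CCL21+RANK- and CCL21-RANK- cells, leaving out single libraries gave 657 (without CCL21-RANK- replicate 2) to 2066 called genes, with 772 without CCL21-RANK- replicate 1, 1 to 3 called chemokine genes, and -1.63 to 1.14 for *Ccl22*, which had few counts in both. *Ccl25* passed there with only the groups compared (adjusted p = 0.0124) or without CCL21-RANK+ replicate 1 (0.0147). *Cx3cl1* passed on adjusted p with only the groups compared (0.0223) or a replicate block (0.0287), at folds under 1.5. The causes were not tested.

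Correlations of deviations ran from -0.117 to 0.126 for same-numbered libraries and from -0.0984 to 0.117 for the others. Between CCL21+RANK- and CCL21-RANK+ libraries they were 0.126, 0.0485, and 0.0707 for the same number and -0.0984 to 0.041 for different numbers. In the group of 2 libraries the deviations mirror each other. These values do not settle whether the numbers pair libraries, and the main fit did not pair them. With a replicate block, 6617, 1913, and 6324 genes and 9, 3, and 10 chemokine genes were called, the added one being *Ccl25* between CCL21+RANK- and CCL21-RANK- cells (adjusted p = 0.0473).

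Depth limits *Ccl22*, *Ccl17*, *Ccl20*, and *Xcl1* in the 2 Venus-negative populations, where they had no or few counts. With 2 CCL21-RANK- libraries, that population's spread rests largely on the others, and a lone library left after an omission was assumed to vary like the other groups.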
